A study of Heliconius himera and Heliconius erato lativitta and Heliconius erato petiverana with 18 samples.

Results

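The 18 pupal wing libraries of this series were divided into 2 sets, chosen by a counting statistic, the share of ambiguous reads, which are reads that overlap more than 1 annotated feature. The low-ambiguous set held 8 of the 18 libraries, with a share under 1% of all rows summed, and the high-ambiguous set held the other 10, with a share over 1%. The low-ambiguous libraries were himera number 1 and petiverana numbers 1, 2 and 3, each as a forewing (FW) and a hindwing (HW) library. The high-ambiguous libraries were himera numbers 2 and 3 and lativitta numbers 1, 2 and 3, again as FW and HW. Each wing therefore gave 4 low-ambiguous and 5 high-ambiguous libraries. Messenger RNA came from whole wings of Heliconius himera, H. erato petiverana and H. erato lativitta on day 3 after pupation, and all animals were raised at about 27 °C. No treatment or allele is given in the labels, and nothing in them says that the 3 numbers of a group were separate animals. P-values therefore measure the spread between these libraries, which may be technical.

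Heliconius himera and H. erato are related tropical American butterflies with different colour patterns on their wings. In the pupal wing, an epithelial sheet forms scale cells, deposits cuticle and later makes pigment, and its gene expression changes from day to day. Hindwing identity in butterflies depends on the Hox gene Ultrabithorax. The deposited gene IDs carry no gene names, so the roles of single IDs and markers of the labelled tissue were not analysed here. In whole wings, fewer cells of a type and less RNA per cell cannot be told apart.

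The sets were selected on the measured share of ambiguous reads, which is given here only as a description. It was 0.453% to 0.715% in the low-ambiguous libraries and 1.40% to 1.77% in the high-ambiguous ones. The values nearest the 1% line were 0.715% in himera HW 1 and 1.40% in lativitta FW 2, so no library lay close to it. The split was proposed with principal components of the same counts known. Differences between the sets are therefore described by level, fold and overlap without p-values. Set and taxon cannot be told apart in petiverana and lativitta. Only himera had libraries in both sets, and there set and number cannot be told apart.

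Depth did not separate the sets. Gene reads ranged from 5126335 to 8543102 in the low-ambiguous libraries and from 4599197 to 17002996 in the high-ambiguous libraries. Reads aligned at more than 1 place made up 23.0% to 28.3% of rows in the low-ambiguous libraries and 22.9% to 27.2% in the high-ambiguous libraries. Reads outside any feature made up 25.8% to 37.2% in the low-ambiguous and 26.1% to 28.9% in the high-ambiguous libraries. At an equal depth of 4599197 reads, 10583 to 11103 IDs would be read at least once in a low-ambiguous library, and 10784 to 11043 in a high-ambiguous library. The number of detectable IDs thus overlapped between the sets. The part of these read classes in the differences between the sets was not tested.

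How reads were spread over those IDs did separate the sets. The effective number of IDs, the exponential of the Shannon entropy of the read shares, was 393 to 533 in low-ambiguous libraries and 1541 to 2084 in high-ambiguous libraries. The sum over the 100 most read IDs was 55.2% to 62.6% of gene reads in the low-ambiguous set, against 30.1% to 36.2% in the high-ambiguous set. Levels are given as CPM, counts per 1000000 of a library size scaled by its TMM factor (factors below), unless called plain. A level in CPM is therefore not a share of gene reads. Of the variance in log2 CPM, 59.1% lay along the first principal component. Its scores were 74.0 to 118 in the low-ambiguous set and -86.9 to -72.0 in the high-ambiguous set. Within himera the scores were 101 in FW 1 and 97.9 in HW 1, against -82.9 to -72.0 in the number 2 and 3 libraries. Himera number 1 lay with petiverana on both measures, and himera numbers 2 and 3 with lativitta. Since the split was proposed with principal components known, the scores describe the sets and give no separate support for them.

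**Figure D1:**
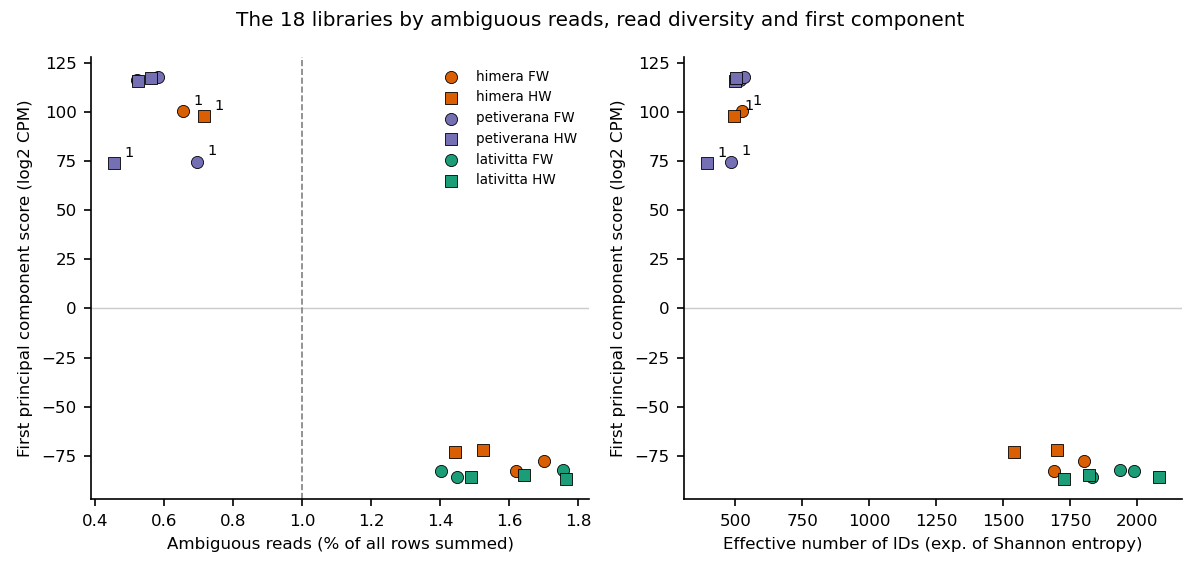
Score on the first principal component of log2 CPM against the share of ambiguous reads (left, dashed line at 1%) and against the effective number of IDs (right), 1 point per library, coloured by taxon, circles for FW and squares for HW. Number 1 libraries of himera and petiverana are marked 1. The 8 low-ambiguous libraries lie between 74.0 and 118 and the 10 high-ambiguous libraries between -86.9 and -72.0.

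In FW, 1070 of 9957 IDs had sets that did not overlap and set means at least 4-fold apart (10.7% of IDs tested). Of these, 772 were higher in the low-ambiguous libraries (7.75%) and 298 higher in the high-ambiguous libraries (2.99%). In HW, 1007 IDs met the same rule (10.1%), 678 higher in the low-ambiguous libraries (6.81%) and 329 higher in the high-ambiguous libraries (3.30%). The sets were drawn from these libraries, so nothing is read from these shares beyond their size. Most IDs differed little, with set means within 2-fold of each other for 68.5% of IDs in FW and 68.0% in HW. The large differences lay mostly on 1 side. At 64-fold or more in FW, 205 IDs were higher in the low-ambiguous set (2.06% of IDs tested) and 27 higher in the high-ambiguous set (0.271%). The counts in HW were 188 (1.89%) and 29 (0.291%).

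These directions rest on TMM scaling, which holds the bulk of IDs level between libraries. The TMM factors were 0.522 to 0.740 in low-ambiguous libraries and 1.23 to 1.63 in high-ambiguous libraries. Under plain CPM the median ID had a log2 difference, low-ambiguous minus high-ambiguous, of -1.05 in FW and -1.04 in HW, against -0.01 and 0.00 under TMM. Of 9957 IDs, plain CPM gave 490 higher and 1141 lower in the low-ambiguous FW libraries, and 426 higher and 1163 lower in HW. The share of IDs higher in the low-ambiguous set was thus 30% of the counted IDs in FW and 26.8% in HW under plain CPM, against 72.1% and 67.3% under TMM. Median-of-ratios factors gave 73.3% and 68.3%. Counts by direction are therefore relative to the median ID.

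The IDs that met the rule in FW were largely those that met it in HW. In both wings 609 IDs were higher in the low-ambiguous set (6.12% of IDs tested) and 245 higher in the high-ambiguous set (2.46%). They made up 79.8% of the FW list and 84.8% of the HW list, and 0 IDs met the rule in opposite directions. Since FW and HW of equal number can share an animal, the second wing is not an independent repeat. The share was larger among IDs with a high mean over all 18 libraries, a mean that a large difference between the sets itself raises. Of the 163 IDs with a mean over 1000 CPM, 47 were higher in the low-ambiguous set (28.8%) and 13 higher in the high-ambiguous set (7.98%). Among the 3169 IDs with a mean of 1 to 10 CPM the shares were 4.64% and 1.39%.

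The 609 IDs higher in the low-ambiguous set in both wings took 25.7% to 52.8% of gene reads there (median 50.1%), against 1.29% to 2.53% in the high-ambiguous libraries. Petiverana number 1 had the lowest shares of the low-ambiguous set, 25.7% in FW and 26.2% in HW, while the other 6 libraries lay between 49.5% and 52.8%. Leaving out the 10 most read of these IDs, the rest still took 18.9% to 27.2% of gene reads in the low-ambiguous set and 1.11% to 2.39% in the high-ambiguous set. The 245 IDs higher in the high-ambiguous set took 0.335% to 0.449% of gene reads in low-ambiguous libraries and 12.1% to 16.6% in high-ambiguous libraries. Both lists were selected for these differences, so the direction of their shares follows from the choice. The median share of the second list in high-ambiguous libraries was 15.48%, and it was 25.15% when the list was drawn under plain CPM.

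**Figure D2:**
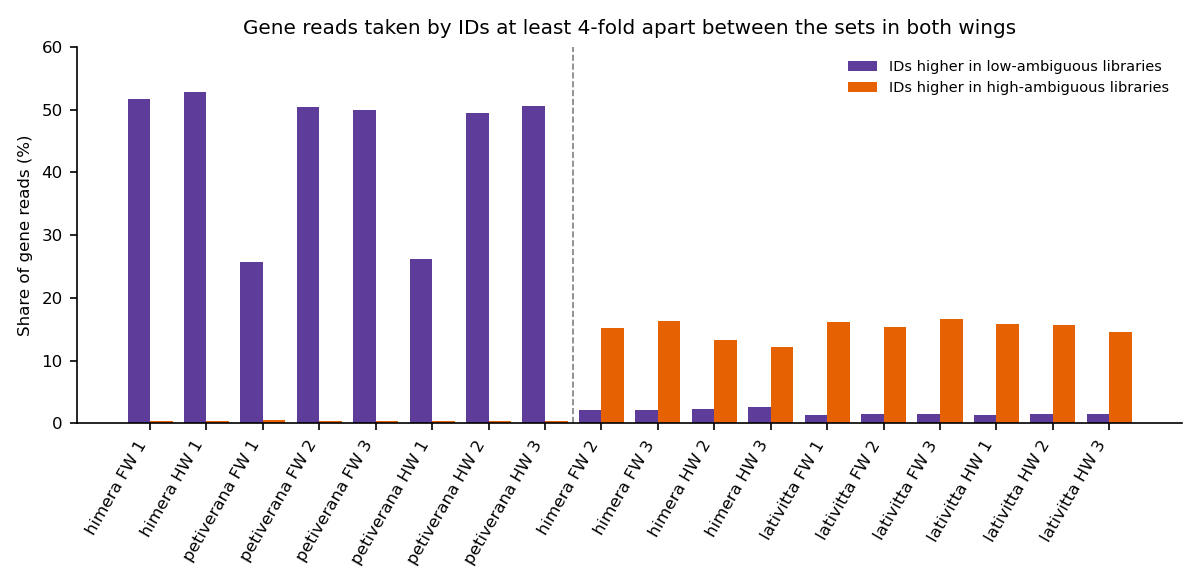
Share of gene reads (percent, bars from 0) taken in each library by the 609 IDs higher in the low-ambiguous set and by the 245 IDs higher in the high-ambiguous set, in both wings. Libraries left of the dashed line are low-ambiguous. Both petiverana number 1 libraries stand at 25.7% and 26.2%, the other low-ambiguous libraries at 49.5% to 52.8%.

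Among IDs averaging at least 10 CPM, the widest differences towards the low-ambiguous set, by the smaller of the FW and HW differences, were those of HEL_008904 and HEL_009001. HEL_008904 was at 20215 CPM in himera FW 1 and at 1452, 105712 and 131180 CPM in petiverana FW 1, 2 and 3, against 17.7 and 2.05 CPM in himera FW 2 and 3 and 0.448, 1.85 and 29.1 CPM in lativitta FW 1, 2 and 3. In HW it was at 19922 CPM in himera 1 and 2711, 111254 and 133839 CPM in petiverana, against 5.60 and 2.17 CPM in himera 2 and 3 and 5.22, 1.80 and 7.01 CPM in lativitta. The sets did not overlap in either wing, and petiverana number 1 was the lowest of the low-ambiguous libraries in both. The difference of the set means was 12.47 on the log2 CPM scale in FW (pooled SD within sets 2.61) and 12.84 in HW (SD 1.82).

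HEL_009001 was highest in himera number 1. It was at 77218 CPM in himera FW 1 and at 12127, 31567 and 20440 CPM in petiverana FW 1, 2 and 3, against 1.86 to 18.4 CPM in the 5 high-ambiguous FW libraries. In HW himera 1 had 72267 CPM and petiverana 18589, 28385 and 18841 CPM, against 1.84 to 5.88 CPM in the high-ambiguous libraries. Its set means differed by 12.32 in FW (SD 1.24) and 12.89 in HW (SD 0.80) on the log2 scale. HEL_009003 had, after HEL_008904, the most CPM in the low-ambiguous set, averaged over both wings, among the IDs that met the rule in both. It was at 18191 CPM in himera FW 1 and 922, 79168 and 86969 CPM in petiverana FW 1, 2 and 3, against 21.9 and 6.66 CPM in himera FW 2 and 3 and 2.24, 44.4 and 49.7 CPM in lativitta FW. The sets did not overlap, and petiverana number 1 was again the lowest of the low-ambiguous libraries. The difference was 10.23 in FW (SD 2.45) and 9.91 in HW (SD 1.94) on the log2 scale.

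By the same ranking, the widest differences towards the high-ambiguous set were those of HEL_001189 and HEL_009064. HEL_001189 was at 7.77 CPM in himera FW 1 and 2.54, 0.516 and 2.27 CPM in petiverana FW 1, 2 and 3, against 2241 and 2797 CPM in himera FW 2 and 3 and 2822, 2418 and 2835 CPM in lativitta FW. In HW the low-ambiguous libraries held 0.908 to 5.91 CPM, against 759 to 3152 CPM in the high-ambiguous libraries. The difference was -9.99 in FW (SD 0.91) and -9.04 in HW (SD 0.99) on the log2 scale. HEL_009064 was at 1.89 to 14.6 CPM in low-ambiguous FW libraries and 633 to 11223 CPM in high-ambiguous FW libraries, a difference of -9.03 (SD 1.59). Within the high-ambiguous FW set it was higher in himera 2 and 3, at 10633 and 11223 CPM, than in lativitta, at 633 to 5744 CPM. In HW it was at 3.63 to 11.6 CPM in low-ambiguous libraries, against 8184 and 7844 CPM in himera 2 and 3 and 4541, 9372 and 2711 CPM in lativitta, where himera and lativitta overlapped.

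Among IDs higher in the high-ambiguous set in both wings, HEL_002632 and HEL_006742 had the most CPM there, averaged over the 10 libraries of both wings. In HW alone HEL_006742 averaged 3680 CPM in the high-ambiguous set, below HEL_009064 at 6531 CPM. HEL_002632 was at 106 CPM in himera FW 1 and 57.8, 80.2 and 123 CPM in petiverana FW 1, 2 and 3, against 9922 and 12767 CPM in himera FW 2 and 3 and 15793, 11350 and 14704 CPM in lativitta FW. HEL_006742 was at 22.6 CPM in himera FW 1 and 23.8, 9.98 and 6.19 CPM in petiverana FW, against 3942 and 7335 CPM in himera FW 2 and 3 and 15578, 17799 and 7619 CPM in lativitta FW. The FW sets did not overlap for either ID, with log2 differences of -7.17 (SD 0.38) for HEL_002632 and -9.36 (SD 0.90) for HEL_006742. In HW the differences were -6.65 (SD 1.06) for HEL_002632 and -7.11 (SD 1.11) for HEL_006742 on the log2 scale, again without overlap. In HW, HEL_002632 was lower in himera 2 and 3, at 3710 and 2038 CPM, than in lativitta, at 11323 to 16778 CPM. HEL_002632 was the most read ID in 5 of the 6 lativitta libraries, and HEL_006742 in lativitta FW 2.

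**Figure D3:**
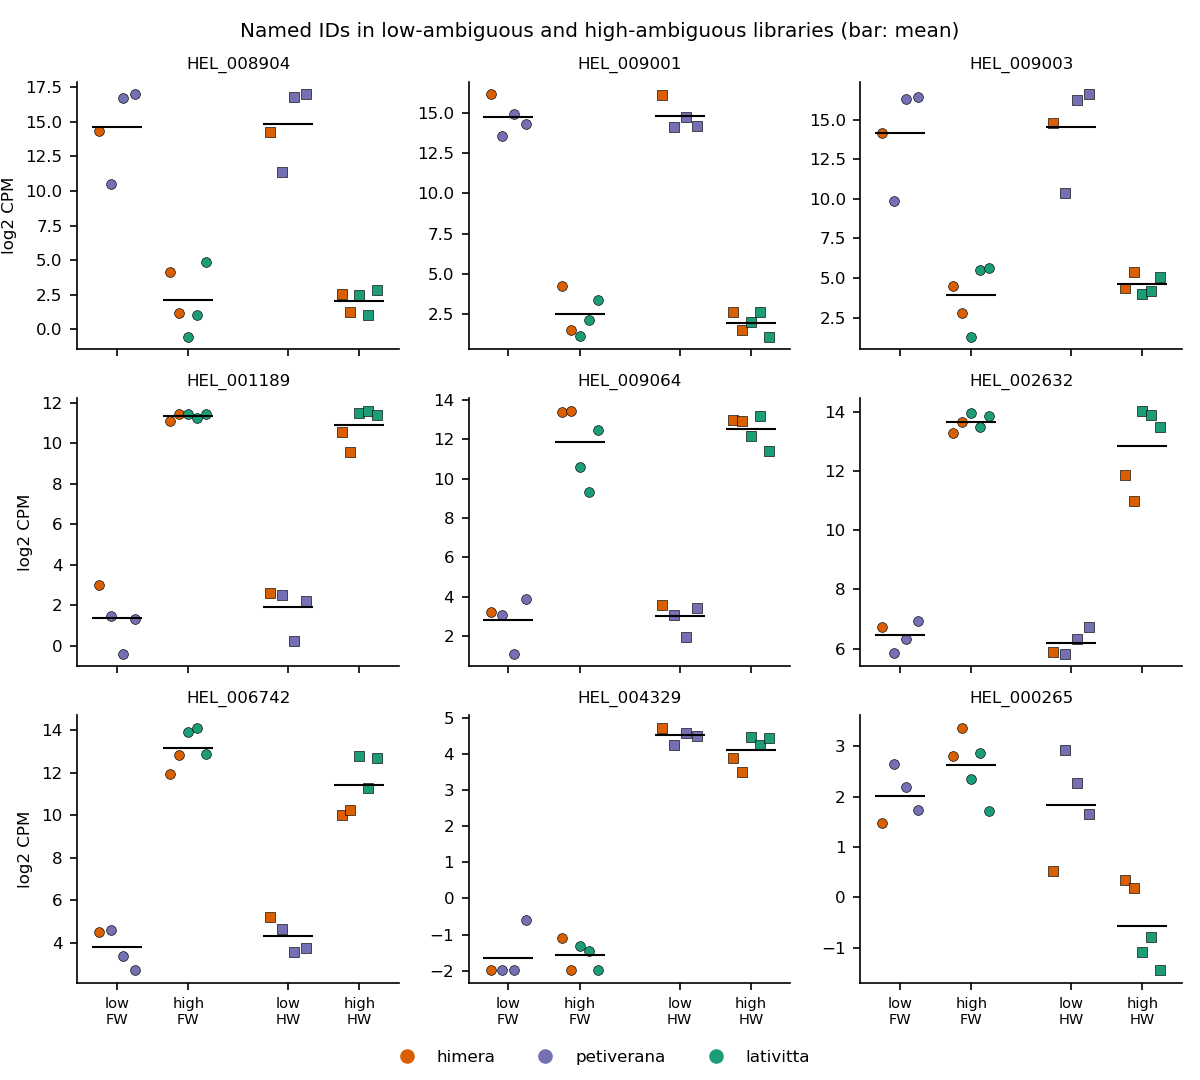
Log2 CPM (prior count 2) of 9 named IDs in each library, with the low-ambiguous set left of the high-ambiguous set in each wing, coloured by taxon, and a bar at each set mean. HEL_008904, HEL_009001 and HEL_009003 are higher and HEL_001189, HEL_009064, HEL_002632 and HEL_006742 lower in the low-ambiguous set without overlap, while HEL_004329 and HEL_000265 are named for their difference between wings.

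The most read IDs also differed inside the sets. Of the 25 IDs ever among the 10 most read of a low-ambiguous library and the 23 ever among the 10 most read of a high-ambiguous library, 2 occurred in both lists. These were HEL_002963 and HEL_009347. The IDs named in this paragraph were chosen after their values were seen. HEL_009347 was the most read ID of all 4 high-ambiguous himera libraries, with 1.57% to 2.72% of gene reads. Among the low-ambiguous libraries it took 5.18% and 5.51% in petiverana FW 1 and HW 1, and its median over the 8 was 32.1 CPM. HEL_002963 was the most read ID of petiverana number 1, at 6.05% in FW and 6.61% in HW. No ID was among the 10 most read of all 8 low-ambiguous libraries, whereas HEL_002519 and HEL_008637 were among the 10 most read of all 10 high-ambiguous ones. In TMM-scaled CPM the levels of HEL_002519 overlapped between the sets, at 8091 ± 2677 CPM in the low-ambiguous set (SD, n = 8) and 8530 ± 1006 CPM in the high-ambiguous set (SD, n = 10). Its shares of gene reads did not overlap, at 0.434% to 0.708% in low-ambiguous and 0.935% to 1.44% in high-ambiguous libraries. HEL_008637, which met the rule in both wings, took 0.00159% to 0.0484% in low-ambiguous and 0.690% to 1.05% in high-ambiguous libraries.

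Whether himera alone showed the same direction was examined with IDs chosen without himera. Petiverana and lativitta libraries did not overlap and were at least 4-fold apart for 1369 IDs in FW (13.7% of IDs tested), 969 higher in petiverana (9.73%) and 400 higher in lativitta (4.02%). Himera FW 1 differed from the mean of himera FW 2 and 3 in the same direction in 1247 of them, or 91.1%. For 62.4% the himera difference was also at least 4-fold, and for 1.83% it was at least 4-fold the other way. Over all 9957 IDs himera FW 1 was higher in 49.7%, at least 4-fold higher in 10.7% and at least 4-fold lower in 6%. In HW 1372 IDs were chosen (13.8%), 933 higher in petiverana (9.37%) and 439 higher in lativitta (4.41%), and 85.7% of the 1372 had the same direction in himera. For 59% of the 1372 that himera difference was at least 4-fold, and for 2.48% it was at least 4-fold the other way. Over all 9957 IDs himera HW 1 was higher in 49.1%, at least 4-fold higher in 10.3% and at least 4-fold lower in 7.26%. Himera has 1 library on the number 1 side of each wing, so these differences have no replicate check.

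The sizes can be set side by side. For IDs higher in petiverana FW the median difference was 3.27 on the log2 scale between himera 1 and himera 2 and 3, and 3.83 between petiverana and lativitta. For IDs higher in lativitta FW the medians were -2.15 and -2.81. In the converse choice the IDs were taken from himera. Himera FW 1 lay above both himera FW 2 and 3 and at least 4-fold above their mean for 1068 IDs (10.7% of IDs tested), of which 92.9% were higher in petiverana than in lativitta, 66.9% at least 4-fold, and 1.12% at least 4-fold lower. It lay below both and at least 4-fold below their mean for 596 IDs (5.99%), of which 80.7% were lower in petiverana, 39.8% at least 4-fold, and 4.36% at least 4-fold higher. Over all 9957 IDs in FW, 49.8% were higher in petiverana, 11.7% at least 4-fold higher and 4.47% at least 4-fold lower. In HW the 1030 IDs above in himera 1 (10.3% of IDs tested) were higher in petiverana for 91.9%, at least 4-fold for 63.1%, and at least 4-fold lower for 1.17%. The 722 below in himera HW 1 (7.25%) were lower in petiverana for 78.7%, at least 4-fold for 35.7%, and at least 4-fold higher for 5.4%. Over all IDs in HW, 50.5% were higher in petiverana, 11.4% at least 4-fold higher and 4.87% at least 4-fold lower.

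**Figure D4:**
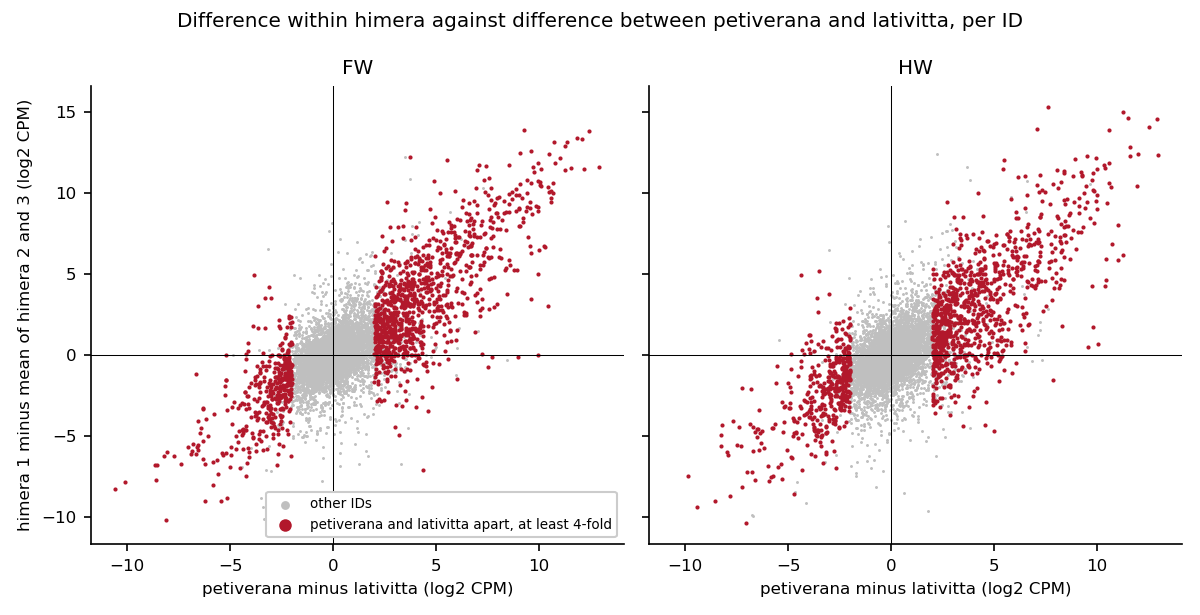
Log2 CPM difference between himera number 1 and the mean of himera numbers 2 and 3 against the difference between petiverana and lativitta, 1 point per ID, in FW and HW. Red points are the 1369 IDs in FW and 1372 in HW whose petiverana and lativitta libraries do not overlap and are at least 4-fold apart, and 91.1% and 85.7% of them lie in the lower left and upper right quadrants.

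A minority of abundant IDs ran against this direction in himera. Among IDs with a mean of at least 10 CPM chosen in both wings, 18 of 563 higher in petiverana were lower in himera number 1 in both wings, and 7 of 227 higher in lativitta were higher in himera number 1. HEL_006994 was at 111 CPM in himera FW 1, against 798 and 770 CPM in himera FW 2 and 3, while petiverana FW held 1442 to 1674 CPM and lativitta FW 317 to 445 CPM. Himera number 1 was the lowest of all 9 FW libraries for this ID. HEL_014052 was at 35.8 CPM in himera FW 1, against 1.93 and 1.54 CPM in himera FW 2 and 3, while petiverana FW held 3.27 to 8.04 CPM and lativitta FW 24.2 to 86.6 CPM. HEL_014052 in himera FW 1 lay within the lativitta range, and in himera FW 2 and 3 below the petiverana range. Also opposite was HEL_012025, at 1.63 CPM in himera FW 1, against 10.2 and 6.91 CPM in himera FW 2 and 3, while petiverana FW held 3.30 to 91.2 CPM and lativitta FW 0.576 to 1.27 CPM. The 4th was HEL_000437, at 42.3 CPM in himera FW 1, against 1.71 and 6.66 CPM in himera FW 2 and 3, while petiverana FW held 0.172 to 0.636 CPM and lativitta FW 2.61 to 15.3 CPM. For these 4 IDs the low-ambiguous and high-ambiguous sets overlapped in both wings.

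Each library was then placed between petiverana and lativitta over the IDs at least 4-fold apart without overlap, with the library itself left out of the choice. A place of 1 is the petiverana mean and 0 the lativitta mean of that wing. Himera 1 had a median place of 0.952 in FW and 0.907 in HW, over 1369 and 1372 IDs. The number 2 and 3 libraries of himera were at 0.0777 to 0.124. Petiverana numbers 2 and 3 were at 0.964 to 0.980 and lativitta libraries at 0.0442 or less. Petiverana number 1 was at 0.701 in FW and 0.680 in HW, with an interquartile range of 0.297 to 1.04 in FW. Its place is set against petiverana 2 and 3, whereas the himera places are set against a mean that includes petiverana number 1. With petiverana number 1 left out, himera 1 was at 0.8105 in FW and 0.7695 in HW.

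**Figure D5:**
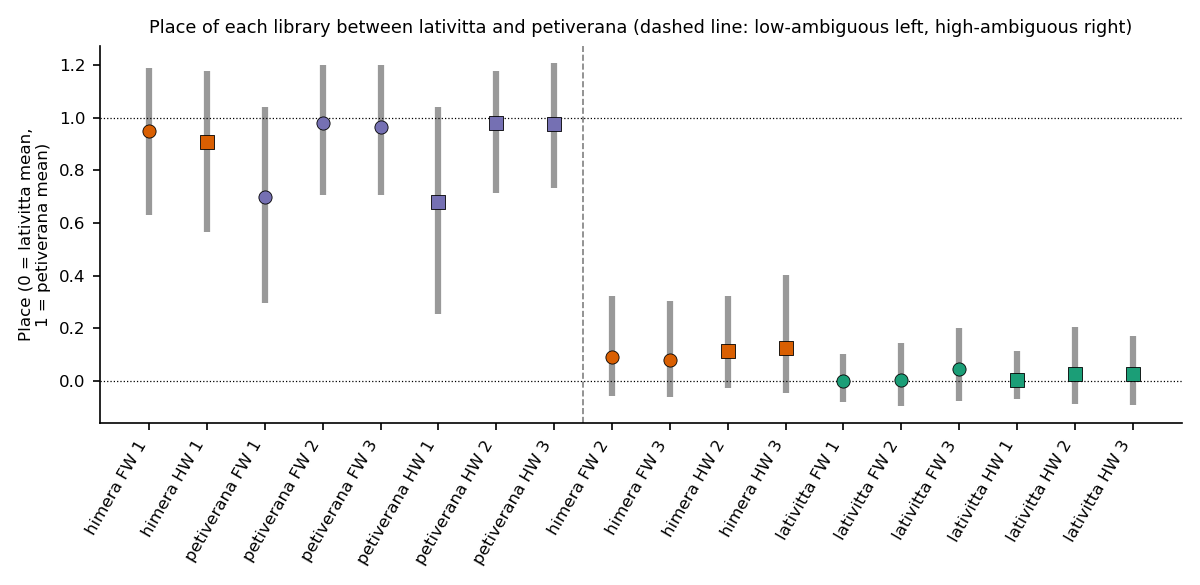
Median place (points) and interquartile range (grey bars) of each library over the IDs that separate petiverana from lativitta in its wing, where 1 is the petiverana mean and 0 the lativitta mean. Low-ambiguous libraries, left of the dashed line, have medians of 0.680 to 0.980, and all high-ambiguous libraries are at 0.124 or less.

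Inside the low-ambiguous set, petiverana number 1 had the smallest share of IDs on its own side. Left out of the choice of IDs, it lay nearer to the high-ambiguous mean for 402 of 1274 IDs in FW and 411 of 1243 in HW, that is, on its own side for 68.4% and 66.9%. Himera number 1 was on its own side for 81.4% of 1192 IDs in FW and 80.2% of 1153 in HW, and the other petiverana libraries for 88.1% to 90.7%. For the high-ambiguous libraries the shares were 90.9% to 98.6%. Among the 772 IDs higher in low-ambiguous FW, petiverana FW 1 was at least 4-fold apart from the mean of petiverana FW 2 and 3 for 41.2%, against 13.3% of all IDs. Among the 298 IDs higher in high-ambiguous FW the share was 13.4%, near that of all IDs. In HW the shares were 42.9% of the IDs higher in the low-ambiguous set, 10.9% of those higher in the high-ambiguous set and 14.5% of all IDs. Spearman correlations across IDs within a wing were 0.798 to 0.953 inside petiverana and 0.850 to 0.875 between himera number 1 and petiverana. Between himera numbers 2 and 3 and lativitta they were 0.907 to 0.951, and between the sets within himera 0.741 to 0.749. Each of these coefficients runs over IDs within a pair of libraries, and IDs are not replicates.

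Many of the 609 and 245 IDs had consecutive ID numbers. Of those higher in the low-ambiguous set, 41.1% had an ID with the next or the previous number in the same list, against 5.99% of the other 9348 IDs. For those higher in the high-ambiguous set the shares were 35.9% and 2.82% of the other 9712 IDs. There were 11 runs of 4 or more consecutive numbers in the first list, the longest with 6, and 2 in the second, the longest with 5. The run from HEL_009000 to HEL_009003, which holds 2 of the IDs named above, took 1.96% to 9.71% of gene reads in low-ambiguous libraries and at most 0.00952% in high-ambiguous libraries. The run from HEL_008900 to HEL_008904 took 0.518% to 9.80% in low-ambiguous and at most 0.00441% in high-ambiguous libraries. Whether consecutive numbers are neighbours in the genome is not given in the sources used here.

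The difference between wings was tested inside each set, since wing comes from the labels and not from the rule for the sets. In the low-ambiguous libraries 2 of 9957 IDs passed edgeR's quasi-likelihood test at an adjusted p under 0.05 (0.0201%), both higher in HW. In the high-ambiguous libraries 3 passed (0.0301%), the same 2 IDs higher in HW and HEL_000265 lower. HEL_004329 averaged 22.7 ± 3.04 CPM in low-ambiguous HW (SD, n = 4) and 17.5 ± 4.67 CPM in high-ambiguous HW (SD, n = 5), with 2 reads in low-ambiguous FW and 5 in high-ambiguous FW. Its HW to FW ratio, from summed reads over summed TMM-scaled library sizes, was 222 in the low-ambiguous set (exact 95% interval for counting error alone 61.0 to 1840) and 167 in the high-ambiguous set (71.1 to 514). HEL_004330 had ratios of 82.2 (22.4 to 685) from 155 HW and 2 FW reads in the low-ambiguous set and 418 (74.7 to 16600) from 464 HW reads and 1 FW read in the high-ambiguous set. For HEL_004329 the edgeR adjusted p was 3.63e-05 in the low-ambiguous and 1.89e-06 in the high-ambiguous set, and for HEL_004330 it was 4.28e-05 and 1.15e-06. Both IDs were higher in HW in all 4 low-ambiguous and all 5 high-ambiguous pairings of taxon and number.

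HEL_000265 passed the wing test in the high-ambiguous set, as a lower level in HW. There it was at 1.02 and 0.889 CPM in himera HW 2 and 3 and 0.222, 0.326 and 0.115 CPM in lativitta HW, against 6.74 and 10.1 CPM in himera FW 2 and 3 and 4.85, 7.04 and 3.03 CPM in lativitta FW. The wings did not overlap, and the log2 change was -3.71 (SE 0.41, edgeR adjusted p = 0.000865). In the low-ambiguous set himera 1 was at 1.18 CPM in HW (5 reads) and 2.53 CPM in FW. Petiverana was at 2.88 to 7.31 CPM in HW and 3.09 to 6.04 CPM in FW. Himera HW 1 thus lay near himera HW 2 and 3, with a log2 difference of 0.25, against 3.38 between petiverana HW and lativitta HW. Over the low-ambiguous set the wings overlapped, with a change of -0.12 (SE 0.41, edgeR adjusted p = 1). The difference between these changes was 3.59 (SE 0.58), which did not pass the edgeR test (adjusted p = 0.222, and 0.191 to 1 when each library was left out in turn). It passed in DESeq2 (adjusted p = 8.69e-05) and with a replicate block for every number (0.0397). It did not pass with the block in himera and petiverana only (0.0572), the taxa where wings of equal number deviated together.

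In edgeR 0 of 9957 IDs passed the test of whether the wing difference depended on the set (0%). DESeq2 called 1. At an unadjusted p under 0.05 edgeR had 155, and for the wing difference 162 in the low-ambiguous and 289 in the high-ambiguous set. All 3 counts are below the share of 0.05 that chance alone would give, so p-values of the fit without a block ran large. For the dependence on set the edgeR count at an unadjusted p under 0.05 was 505 of 9957 with a replicate block for every number. It was 479 of 9957 with the block in himera and petiverana only. Both counts with a block are near the share of 0.05 that chance alone would give. Without a block it was 286 of 10271 without petiverana number 1 and 71 of 9558 without himera, both below that share. A p that misses the threshold does not show that the wings differed alike in the sets. HEL_004584 had the second smallest p, with changes of -0.63 (SE 0.19) in the low-ambiguous and 0.42 (SE 0.16) in the high-ambiguous set (adjusted p = 1 for the difference). With the block in himera and petiverana only, 2 IDs passed the test of dependence, HEL_001129 (-3.73, edgeR adjusted p = 0.0221) and HEL_004499 (-5.02, 0.0221), both named after their values were seen. Without a block the edgeR adjusted p was 1 for both. Reads of both in the high-ambiguous set came mostly from himera HW 2 and 3, where HEL_001129 was at 3.28 and 11.4 CPM and HEL_004499 at 1.11 and 12.4 CPM. Lativitta libraries held 0 to 3 reads of either ID. The count of wing differences in the high-ambiguous set was 8 with that block, 4 higher and 4 lower in HW, while the count in the low-ambiguous set stayed at 2.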

How the data were processed

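Whole-wing mRNA was measured in 18 libraries. For each library the authors deposited a list of raw counts for 14612 gene IDs and 5 summary rows. Per the submitters' processing notes, the tools included TopHat, bedtools and DESeq2, with neither version nor role. The genome build, the annotation and whether strand was used in counting: not given in the sources used here. Reads of overlapping or near-identical genes can end in the summary rows. The summary rows, 49.4% to 62.4% of reads, served only to define the sets and stayed out of library sizes and tests. All taxa were counted against 1 ID list, and whether taxa differ in alignment to it was not tested.

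The analysis used edgeR 4.0.16 under R 4.3.3: filterByExpr on the 6 labelled groups kept 9957 IDs, with TMM factors over all libraries. Levels are TMM-normalised CPM. Differences between sets are differences of mean log2 CPM (prior count 2), counted where sets did not overlap and differed at least 4-fold. Wings were tested with glmQLFit and glmQLFTest in 1 fit of all libraries, with a mean per taxon and set, 1 wing difference per set and 12 residual degrees of freedom, and Benjamini-Hochberg adjustment over 9957 IDs (threshold 0.05). SEs were derived from the F statistic. DESeq2 1.42.0 was an alternative. Only the wing test in the low-ambiguous set and the FW set rule were run on simulated data. Those data had a common mean per ID before the added changes, without taxon or pairing structure.

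FW and HW libraries of equal number deviated together from their group means with r of 0.85 to 0.919 in himera and 0.853 to 0.928 in petiverana. Number 1 stood apart in both taxa. Chi-square per degree of freedom against numbers 2 and 3 was 748 and 857 in himera FW, and 688 and 615 in petiverana FW. Between numbers 2 and 3 it was 16.6 and 64.3. Numbers 2 and 3 therefore both deviate away from number 1, and r across unequal numbers was not computed. These r link the wings of number 1 but cannot tell whether numbers 2 and 3 pair them. In lativitta r was 0.597, -0.534 and -0.458, so numbers do not pair the wings there. No 2 libraries of a group agreed within sampling noise (chi-square per degree of freedom at least 15.9).

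With unnamed IDs, the naming rule took 2 per direction: the largest set difference non-overlapping in both wings (mean of at least 10 CPM), the most CPM in the higher set, the largest himera difference opposite to the other taxa, the largest wing changes passing the test in each set, and the 2 smallest interaction p. Gene lists need names and were not run. The sets, rules and tests were chosen with earlier results of these data known.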

Additional observations from a re-analysis of the deposited data

Results flagged for a closer look

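A single library stood far from the other libraries of its set and wing in 8 of 84 groups of values examined. Chance alone flags about 1 in 20 groups, but the tally cannot be set against that rate, since some IDs were chosen for a himera difference opposite to the other taxa. That choice covers the himera number 1 values, which stood apart within the low-ambiguous set for HEL_006994, at 111 CPM in FW and 173 CPM in HW, and for HEL_000437 in FW, at 42.3 CPM. Petiverana HW 1 had the lowest effective number of IDs of its set and wing, 393. HEL_001189 was at 0.908 CPM in petiverana HW 2, below the other low-ambiguous HW libraries. HEL_004329 at 0.412 CPM in petiverana FW 3 and HEL_004330 at 0.0746 CPM in lativitta FW 1 stood above the other libraries of their set and wing, which had 0 reads. Lativitta HW 3 had 27.2% of reads aligned at more than 1 place, the highest of the high-ambiguous HW libraries.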

How the results depend on the processing

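Of 1168 recomputed values for single IDs, read shares, library places and counts at an unadjusted p, 1134 were labelled the same. They stayed within a tolerance of the main value or, for tested values, kept their call. The tolerance left room for sizeable shifts. With each library left out in turn, the FW set difference of HEL_008904, 12.47 on the log2 scale, ran from 11.67 to 13.84. The place of himera FW 1, 0.952, ran from 0.8101 to 0.9379. Both kept the label throughout. By this labelling 0 reversed, but a tested value counted as reversed only where it passed the test. Some that did not pass changed sign when each library was left out in turn. The wing difference of HEL_000265 in the low-ambiguous set ran from -0.449 to 0.126. The dependence of HEL_004329 on set ran from -0.163 to 3.33. The median read share of IDs higher in the high-ambiguous set, 15.48% there, was 25.15% under plain CPM, 21.24% at 2-fold, 19.42% without petiverana number 1 and 13.07% at 8-fold. The counts of IDs 4-fold apart between the sets moved by more than 1.5 times under plain CPM (1631 in FW, 1589 in HW and 1297 in both wings, against 1070, 1007 and 854) and at 2-fold (1906, 1826 and 1472). Leaving out each library in turn gave 1089 to 1321 in FW, 1018 to 1276 in HW and 851 to 910 in both wings. The IDs tested also changed there, from 9957 to between 10250 and 10323. The lowest FW count, 1089, came with himera HW 2 left out, a library of the other wing, and still exceeded 1070. The counts were 1319, 1275 and 1089 of 10271 IDs without petiverana number 1. Without himera they were 1306, 1301 and 1093 of 9558 IDs. Effects of the omitted libraries and of the changed IDs tested were not separated. The share of IDs with the same direction in himera was 94.2% in FW and 92.1% in HW under plain CPM, 94.5% and 91.5% at a mean of at least 10 CPM, 94.4% and 90.4% at 8-fold, and 85.2% and 81.4% without petiverana number 1, an alternative chosen after seeing the data. In FW it was 89% without a filter and 87% at 2-fold. Leaving out 1 library gave 85.1% to 90.8% in FW and 83.1% to 86.5% in HW, with no value where himera number 1 of that wing was left out. For the wing difference, DESeq2 called 8 IDs in the high-ambiguous set and 1 for the dependence on set. With a replicate block for every number the counts were 12 and 3, and with the replicate block in himera and petiverana only 8 and 2, against 3 and 0 without a block. Neither block changed the count at an adjusted p under 0.05 in the low-ambiguous set, which was 2 throughout and in each fit that left out 1 library. In those fits the high-ambiguous count was 3 to 4 and that for the dependence on set 0. At an unadjusted p under 0.05 in edgeR the low-ambiguous count was 162 of 9957 without a block. It was 386 with the block for every number and 375 with the block in himera and petiverana only. The cause was not tested. Few reads limit the wing ratios.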
